A study of Arabidopsis thaliana with 10 samples.

Results

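Of the 27086 loci in the deposited expression tables, 7 genes of galactinol and raffinose family sugar metabolism were followed by their locus identifiers across all 10 libraries. They were 3 galactinol synthase genes, GOLS1 (AT2G47180), GOLS2 (AT1G56600) and GOLS3 (AT1G09350), the raffinose synthase gene RS5 (AT5G40390), the stachyose synthase gene STS (AT4G01970), and SIP1 (AT1G55740) and SIP2 (AT3G57520), named after a seed imbibition protein. RefSeq gives the symbol SIP1 to AT5G40390 as well as to AT1G55740; here RS5 is AT5G40390 and SIP1 is AT1G55740. Total RNA came from whole Arabidopsis thaliana seedlings, ecotype Col-0, at 10 days after germination, with 2 libraries for each of 5 genotypes. The genotypes were WT (wild type), 2 single mutants (atbmi1a, atbmi1b), the strong form of the double mutant (atbmi1ab_strong) and the triple mutant (atbmi1abc), all in the same ecotype. AtBMI1A, AtBMI1B and AtBMI1C encode RING-finger proteins of Polycomb repressive complex 1, which keeps developmental genes silent through chromatin. The labels give no allele and no added treatment, and do not state whether replicate libraries stem from different plants. The p-values therefore describe the spread between libraries, and that spread may be technical.

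Raffinose family oligosaccharides are built by adding galactose units to sucrose. Galactinol synthase joins UDP-galactose to myo-inositol, raffinose synthase moves the galactose of galactinol onto sucrose, and stachyose synthase moves another onto raffinose. Alpha-galactosidases take the chain apart again. These sugars accumulate in maturing seeds and in leaves under cold, drought or heat, where they are known as protectants of membranes and as scavengers of radicals. GOLS1 and GOLS2 are known for induction by heat, drought and salt, and GOLS3 for induction by cold. RS5 is the main raffinose synthase of stressed leaves, STS acts in seeds, SIP2 is an alkaline alpha-galactosidase that cleaves raffinose, and SIP1 encodes a raffinose synthase-like protein.

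The 250 bases before the annotated start of GOLS1, GOLS3, RS5, STS and SIP1 are printed because the genotype means of these 5 genes spanned the widest ranges on the log2(FPKM + 1) scale, which compresses low genes such as GOLS2. The sequences are RefSeq's TAIR10.1, read 5′ to 3′ on the strand of the gene. Capitals mark matches, on either strand, to ACGTG, the core of abscisic acid response elements, CCGAC, the core of cold and dehydration response elements, CATGCA, the RY motif of seed genes, or GAANNTTC, a heat shock element core. The windows lie at chr2:19370479-19370728 (minus strand) for GOLS1, chr1:3019389-3019638 (plus) for GOLS3, chr5:16161199-16161448 (plus) for RS5, chr4:857402-857651 (minus) for STS and chr1:20838779-20839028 (minus) for SIP1. None of them overlaps another annotated gene.
GOLS1: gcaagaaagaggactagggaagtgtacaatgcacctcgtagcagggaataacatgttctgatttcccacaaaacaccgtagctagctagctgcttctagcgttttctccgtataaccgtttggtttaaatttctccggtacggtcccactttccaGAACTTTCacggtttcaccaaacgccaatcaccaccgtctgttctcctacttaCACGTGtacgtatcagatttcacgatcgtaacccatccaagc
GOLS3: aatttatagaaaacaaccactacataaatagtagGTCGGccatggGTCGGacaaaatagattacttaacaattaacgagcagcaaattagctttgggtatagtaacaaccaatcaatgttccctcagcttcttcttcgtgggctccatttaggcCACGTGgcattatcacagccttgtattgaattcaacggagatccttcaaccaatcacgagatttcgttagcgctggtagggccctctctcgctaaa
RS5: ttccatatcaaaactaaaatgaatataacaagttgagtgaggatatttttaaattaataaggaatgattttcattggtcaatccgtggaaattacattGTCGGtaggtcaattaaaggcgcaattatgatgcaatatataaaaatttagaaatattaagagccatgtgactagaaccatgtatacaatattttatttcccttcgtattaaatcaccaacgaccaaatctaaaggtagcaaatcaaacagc
STS: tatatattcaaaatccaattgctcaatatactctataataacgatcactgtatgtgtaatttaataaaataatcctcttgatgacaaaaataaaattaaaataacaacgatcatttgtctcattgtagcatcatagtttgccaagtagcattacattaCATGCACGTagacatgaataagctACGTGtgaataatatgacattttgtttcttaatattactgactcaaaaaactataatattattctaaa
SIP1: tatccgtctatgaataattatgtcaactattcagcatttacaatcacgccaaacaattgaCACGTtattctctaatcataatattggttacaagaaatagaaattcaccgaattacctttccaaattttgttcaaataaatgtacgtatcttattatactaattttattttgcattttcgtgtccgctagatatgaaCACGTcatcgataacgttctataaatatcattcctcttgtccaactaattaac

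Across all 27443 windows of this length in the annotation, 22.9% held ACGTG, and 5 of the 7 members did (GOLS1, GOLS3, STS, SIP1 and SIP2). In GOLS1, GOLS3 and SIP2 the matches on the plus and minus strands overlap in the palindrome CACGTG. The CCGAC core was found in 12.0% of all windows and in 3 members, once each in GOLS2 and RS5 and at 2 positions in GOLS3. CATGCA was found in 8.43% of all windows and in STS alone among the members, where it overlaps an ACGTG match on the other strand. GAANNTTC was found in 9.55% of all windows and in GOLS1 and GOLS2. A match is a run of letters, not a shown binding site.

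**Figure D1:**
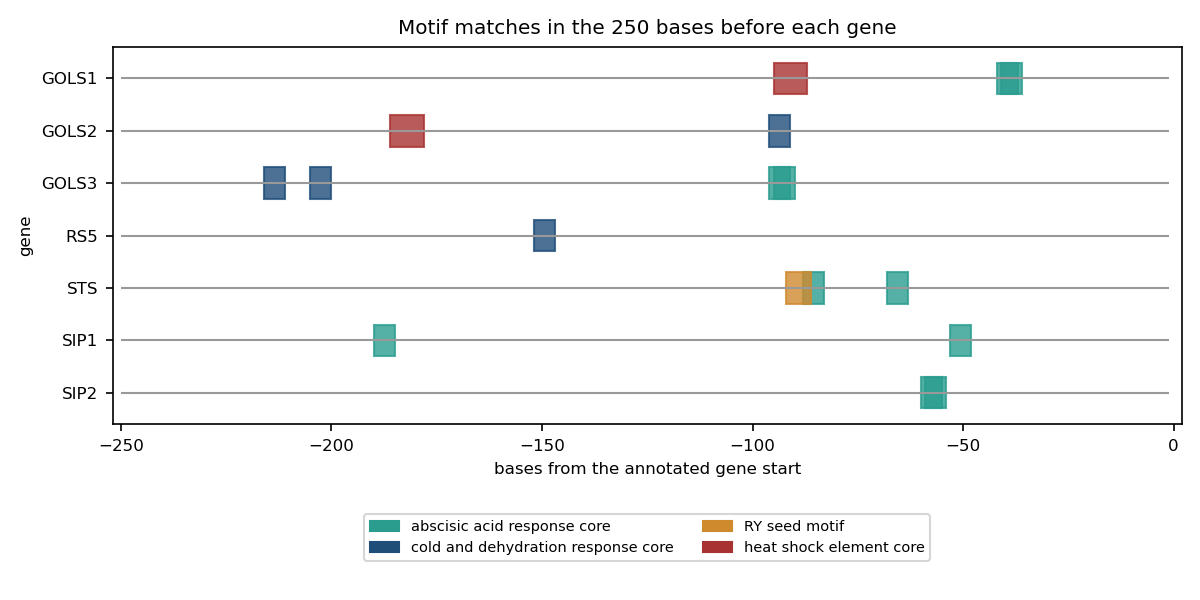
Motif matches in the 250 bases before the annotated start of each of the 7 genes; the horizontal axis gives bases from the start and boxes are matches on either strand. GOLS3 holds 2 cold and dehydration response cores, and STS holds the only RY seed motif among the members.

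The annotation places the genes on 5 chromosomes of TAIR10.1. GOLS1 spans chr2:19368798-19370478 with 4 exons, GOLS2 chr1:21207537-21209635 with 4, and GOLS3 chr1:3019639-3021443 with 3 or 4 depending on the transcript. RS5 spans chr5:16161449-16165453 with 5 exons, STS chr4:853922-857401 with 4, SIP1 chr1:20835256-20838778 with 12 and SIP2 chr3:21288742-21293171 with 14. Levels are the authors' FPKM, fragments scaled to gene length and library size, so that they can be compared between genes. The spread is the SD of 2 libraries. Differences were tested with limma on log2(FPKM + 1) over 19460 loci, those whose 10 libraries averaged 1 FPKM or more, with Benjamini-Hochberg adjustment over all of them, and a gene is called higher or lower where the adjusted p is under 0.05. All 7 members passed this filter, but GOLS2, GOLS3 and STS, all under 1 FPKM in WT, passed through the mutants in which they are high.

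FPKM sums per library ranged from 792416 to 990295, with 4846 to 5983 loci listed at 0, and read totals were not given. Libraries of a genotype correlated across tested loci at 0.956 (atbmi1a) to 0.989 (atbmi1b). AtBMI1B fell in the libraries labelled atbmi1b (to 0.182 and 0.108 FPKM), atbmi1ab_strong (1.70 and 1.91) and atbmi1abc (3.89 and 3.64). AtBMI1A, however, stood at 26.8 and 33.4 FPKM in the libraries labelled atbmi1a against 6.91 and 6.08 in WT, and was not reduced in those labelled atbmi1ab_strong (7.89 and 9.19) or atbmi1abc (10.3 and 13.7). AtBMI1C was at 3.04 and 4.35 FPKM in those labelled atbmi1abc and 3.42 and 3.22 in those labelled atbmi1ab_strong, against 0.136 and 0.0456 in WT. The AtBMI1B levels thus go with the labels. Those of AtBMI1A and AtBMI1C were not reduced where the labels name a mutant of these genes. A level per locus does not show whether an unstated allele is functional. Genotype names below mean the libraries labelled so. The 10 seed storage and oil body markers summed to 60.6 and 70.8 FPKM in WT, 82900 and 98400 in atbmi1ab_strong (where the cruciferin genes CRA1 and CRU3 were listed at 0) and 107000 and 128000 in atbmi1abc. Of the single-mutant libraries, atbmi1a replicate 1 stood apart with 3040, against 50.4 in replicate 2 and 47.0 and 81.0 in atbmi1b. The sum of 4 leaf photosynthesis genes was 43200 and 50400 in WT, 27100 to 32800 in the single mutants and 1540 to 1920 in the double and triple mutants. In the single mutants LHCB1.3 and LHCA4 were lower than in WT, but the other genes of this list were not. CA1 had means of 1720 FPKM in atbmi1a and 1550 in atbmi1b against 1090 in WT. RBCS1A had 14900 and 15600 against 15100. In whole seedlings, fewer cells of a type and less RNA per cell cannot be told apart.

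GOLS1 had the highest level among GOLS1, GOLS2 and GOLS3 in every genotype. It was raised in the single mutants, stood near the WT level in atbmi1ab_strong and was lowest in atbmi1abc. Its levels were 15.9 and 17.3 FPKM in WT, 41.7 and 32.1 in atbmi1a, 31.1 and 28.1 in atbmi1b, 18.4 and 18.3 in atbmi1ab_strong, and 5.18 and 5.89 in atbmi1abc. No neighbouring genotypes in the order of the means overlapped. On the log2 scale GOLS1 rose by 1.10 ± 0.13 in atbmi1a (SE; adjusted p = 0.00114) and by 0.80 ± 0.13 in atbmi1b (adjusted p = 0.00218). It fell in atbmi1abc (-1.43 ± 0.13, adjusted p = 2.79e-05). In atbmi1ab_strong the difference of 0.14 ± 0.13 did not pass (adjusted p = 0.39), with a 95% confidence interval of -0.17 to 0.45.

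GOLS2 was low in WT and in atbmi1abc and higher, with overlapping libraries, in the other 3 genotypes. It was at 0.239 and 0.543 FPKM in WT, 3.43 and 4.40 in atbmi1a, 6.34 and 2.95 in atbmi1b, 3.64 and 4.81 in atbmi1ab_strong, and 0.0582 and 0.438 in atbmi1abc. The libraries of atbmi1a, atbmi1b and atbmi1ab_strong overlapped one another and lay above every WT and atbmi1abc library. GOLS2 rose by 1.82 ± 0.31 in atbmi1a (adjusted p = 0.00412), 1.96 ± 0.31 in atbmi1b (adjusted p = 0.00169) and 1.91 ± 0.31 in atbmi1ab_strong (adjusted p = 0.000941). With a pseudocount of 0.1 in place of 1 these values were 3.09, 3.25 and 3.2, since the added 1 FPKM compresses the change of a low gene. The atbmi1abc libraries overlapped WT (-0.16 ± 0.31, adjusted p = 0.649, 95% confidence interval -0.88 to 0.55).

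GOLS3, the cold-induced family member, was high in atbmi1ab_strong and below 1.2 FPKM elsewhere. It stood at 0.713 and 0.588 FPKM in WT, 0.540 and 0.337 in atbmi1a, 0.763 and 1.11 in atbmi1b, 13.1 and 10.0 in atbmi1ab_strong, and 0.126 and 0 in atbmi1abc. The rise in atbmi1ab_strong was 2.92 ± 0.18 (adjusted p = 4.75e-06), while neither single mutant passed (-0.20, adjusted p = 0.418, and 0.23, adjusted p = 0.346). In atbmi1abc GOLS3 fell (-0.64 ± 0.18, adjusted p = 0.0129). Leaving out WT replicate 1 or atbmi1abc replicate 2 ended the call (adjusted p = 0.0619 and 0.062), and with a pseudocount of 0.1 the value was -2.31 (adjusted p = 0.00226). The GOLS3 window is the only one of the 7 with 2 CCGAC matches, and a part of these matches in its level was not tested.

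**Figure D2:**
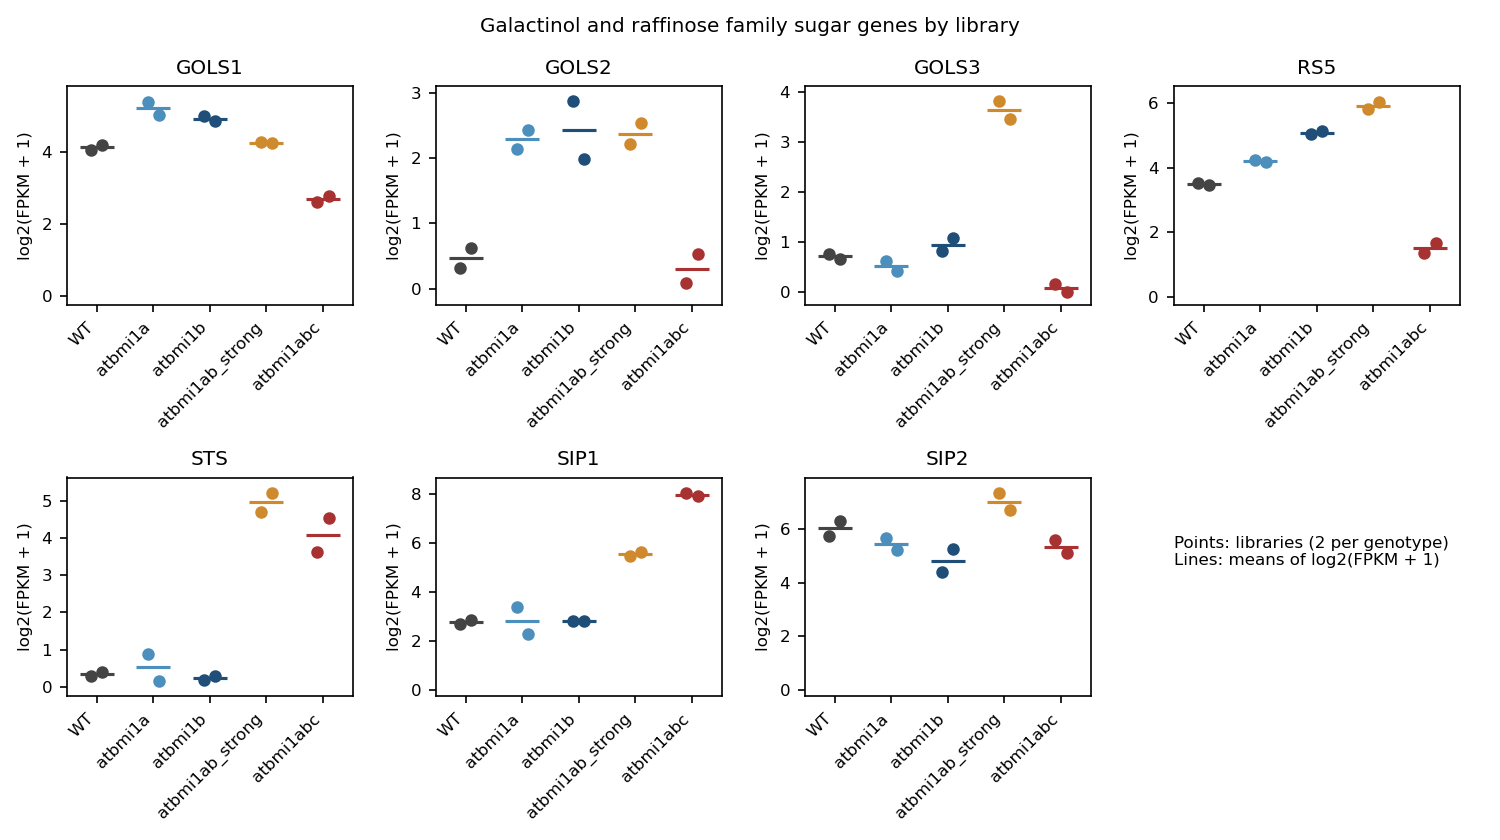
Level of each gene in each of the 10 libraries, as log2(FPKM + 1) on the vertical axis, by genotype; points are libraries and lines are means of 2. GOLS3 stands out in atbmi1ab_strong, STS in atbmi1ab_strong and atbmi1abc, and SIP1 climbs from atbmi1ab_strong to atbmi1abc, where RS5 is at its lowest.

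The make-up of the galactinol synthase transcripts changed with genotype. The summed FPKM of GOLS1, GOLS2 and GOLS3 was 16.9 and 18.4 in WT, 45.6 and 36.9 in atbmi1a, 38.2 and 32.2 in atbmi1b, 35.1 and 33.2 in atbmi1ab_strong, and 5.37 and 6.33 in atbmi1abc. GOLS1 made up 94.3% and 93.9% of it in WT, but 52.3% and 55.3% in atbmi1ab_strong, where GOLS3 held 37.4% and 30.2%. The sums of the single mutants and of atbmi1ab_strong thus lay close together with different members behind them.

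RS5 stepped up through the single mutants to atbmi1ab_strong and was lowest in atbmi1abc. Its levels were 10.6 and 10.0 FPKM in WT, 17.8 and 17.2 in atbmi1a, 32.1 and 34.2 in atbmi1b, 55.2 and 65.5 in atbmi1ab_strong, and 1.56 and 2.21 in atbmi1abc. No neighbours in this order overlapped. RS5 rose by 0.71 ± 0.13 in atbmi1a (adjusted p = 0.0059), 1.60 ± 0.13 in atbmi1b (adjusted p = 0.000102) and 2.43 ± 0.13 in atbmi1ab_strong (adjusted p = 2.44e-06), and fell in atbmi1abc (-1.98 ± 0.13, adjusted p = 4.33e-06). RS5 and GOLS1, the genes of consecutive steps, were both higher in the single mutants and both lower in atbmi1abc. They parted in atbmi1ab_strong, where RS5 was at its highest and GOLS1 was not called (0.14 ± 0.13, adjusted p = 0.39).

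STS was near the floor in WT and the single mutants and high in atbmi1ab_strong and atbmi1abc. It stood at 0.220 and 0.333 FPKM in WT, 0.863 and 0.123 in atbmi1a, 0.139 and 0.226 in atbmi1b, 24.9 and 35.8 in atbmi1ab_strong, and 11.4 and 22 in atbmi1abc. The higher atbmi1a value came from replicate 1, the library with seed storage transcripts. STS rose by 4.60 ± 0.34 in atbmi1ab_strong (adjusted p = 1.2e-05) and 3.73 ± 0.34 in atbmi1abc (adjusted p = 2.49e-05), and was not called in atbmi1a (0.18, adjusted p = 0.707) or atbmi1b (-0.11, adjusted p = 0.825). These rises went with the seed storage sums given above, and the part of those cells or programmes in the level of STS was not tested.

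SIP1 had the highest level of any member in any genotype. It was at 5.46 and 6.28 FPKM in WT, 9.42 and 3.96 in atbmi1a, 6.11 and 6.13 in atbmi1b, 43.7 and 48.7 in atbmi1ab_strong, and 262 and 241 in atbmi1abc. The last pair lay at the percentiles 98.3 and 98.0 of all loci of their libraries, against 49.6 and 51.6 in WT. SIP1 rose by 2.78 ± 0.29 in atbmi1ab_strong (adjusted p = 7.89e-05) and 5.20 ± 0.29 in atbmi1abc (adjusted p = 1.65e-06). WT and the single mutants overlapped (0.07, adjusted p = 0.876 in atbmi1a; 0.05, adjusted p = 0.905 in atbmi1b), and the atbmi1a libraries lay on either side of WT.

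SIP2, the alkaline alpha-galactosidase gene, was the most abundant member in WT and was called higher in atbmi1ab_strong and lower in atbmi1b. Its levels were 53.4 and 78.4 FPKM in WT, 50.4 and 36.5 in atbmi1a, 20.0 and 36.9 in atbmi1b, 162 and 105 in atbmi1ab_strong, and 46.9 and 33.4 in atbmi1abc. The atbmi1ab_strong libraries lay above WT, the others below it, and atbmi1a, atbmi1abc and atbmi1b overlapped as neighbours in the order. SIP2 rose by 1.00 ± 0.35 in atbmi1ab_strong (adjusted p = 0.0367) and fell in atbmi1b (-1.22 ± 0.35, adjusted p = 0.0237). Both calls depended on single libraries. Leaving out WT replicate 1 (0.73, adjusted p = 0.195) or atbmi1ab_strong replicate 1 (0.69, adjusted p = 0.206) ended the first. The second ended on leaving out WT replicate 2 (-0.95, adjusted p = 0.141) or replicate 1 of atbmi1b (-0.79, adjusted p = 0.148). In atbmi1a (-0.58 ± 0.35, adjusted p = 0.231) and atbmi1abc (-0.70 ± 0.35, adjusted p = 0.107) it was not called.

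**Figure D3:**
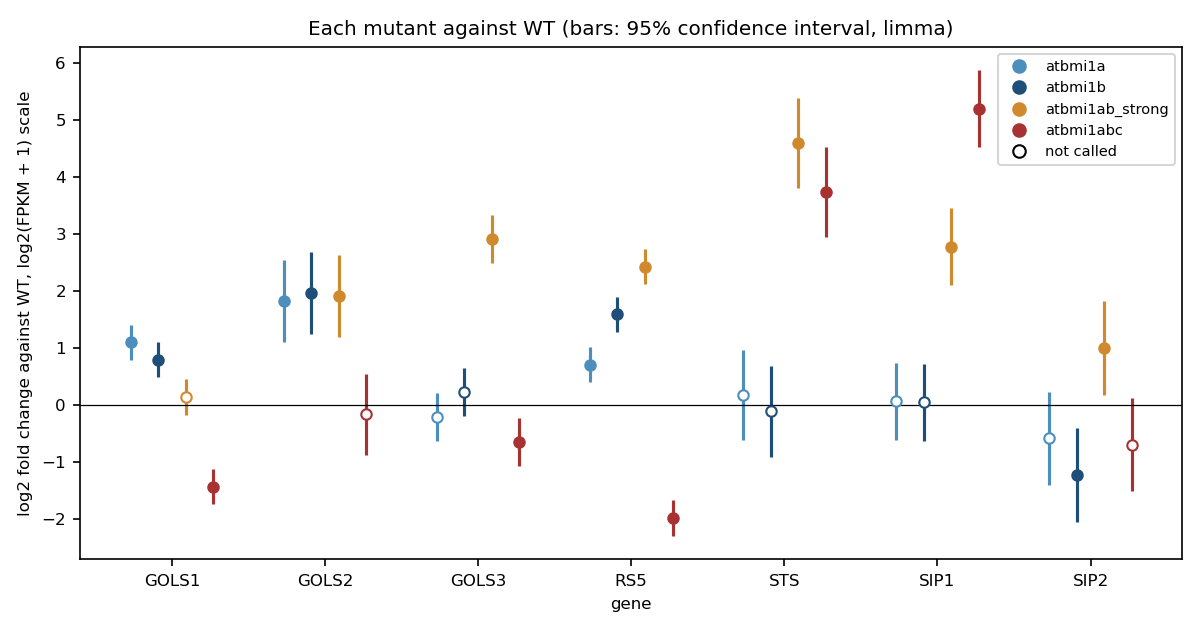
Log2 fold change of each gene in each mutant against WT on the log2(FPKM + 1) scale (vertical axis), with 95% confidence intervals from limma; open points were not called. GOLS1, GOLS3 and RS5 lie below 0 in atbmi1abc, where STS and SIP1 lie at 3.73 and 5.20.

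Counted together, 3 of the 7 members rose and 0 fell in atbmi1a by limma (3 and 0 at an unadjusted p under 0.05), where 35.3% of all tested loci were called in either direction. In atbmi1b, 3 rose and 1 fell, with 45.4% of loci called. In atbmi1ab_strong, 6 rose and 0 fell (6 and 0 at an unadjusted p under 0.05), with 64.4% called, and the median log2 fold change of the members was 2.43 against 0.00 for all loci. In atbmi1abc, 2 rose and 3 fell, with 74.0% called and a median of -0.64 against 0.00. GOLS2, GOLS3 and STS, all among the 6 in atbmi1ab_strong, passed the filter through mutants in which they are high, so this count and median were favoured by the filter. In atbmi1a, atbmi1b and atbmi1abc the shares called lie near those of all loci. The 4 comparisons share the WT libraries.

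The single mutants were compared with each other, where 7.45% of loci were called. RS5 was higher in atbmi1b than in atbmi1a (0.89 ± 0.13, adjusted p = 0.0115) and was the only one of 7 members called. The call was lost without atbmi1b replicate 1 (adjusted p = 0.0622) or replicate 2 (adjusted p = 0.099), and in a fit of these 4 libraries alone (adjusted p = 0.101). For the other 6 members a difference between the single mutants was not detectable with 2 libraries each.

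Set against the mean of the single mutants, atbmi1ab_strong had 5 members higher and 1 lower, with 65.4% of loci called. STS was higher by 4.56 ± 0.29 (adjusted p = 4.87e-06), GOLS3 by 2.91 ± 0.16 (adjusted p = 1.86e-06), SIP1 by 2.72 ± 0.25 (adjusted p = 3.58e-05), SIP2 by 1.90 ± 0.30 (adjusted p = 0.00084) and RS5 by 1.28 ± 0.11 (adjusted p = 3.06e-05). GOLS1 was lower (-0.81 ± 0.12, adjusted p = 0.000436), and GOLS2 differed by 0.02 (adjusted p = 0.957). In atbmi1abc against the same mean 2 members were higher and 4 lower, with 73.4% called. RS5 (-3.13 ± 0.11, adjusted p = 1.76e-07), GOLS1 (-2.38 ± 0.12, adjusted p = 6.62e-07), GOLS2 (-2.06 ± 0.27, adjusted p = 0.000192) and GOLS3 (-0.65 ± 0.16, adjusted p = 0.00596) were the lower ones. Because GOLS2, GOLS3 and STS passed the filter through mutants in which they are high, the counts of both comparisons were favoured by the filter.

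The direct comparison of atbmi1abc with atbmi1ab_strong set SIP1 apart from the rest. All 3 galactinol synthase genes and RS5 were lower in atbmi1abc, with log2 values of -1.57 for GOLS1 (adjusted p = 5.64e-05), -2.07 ± 0.31 for GOLS2 (adjusted p = 0.000968), -3.56 ± 0.18 for GOLS3 (adjusted p = 4.4e-06) and -4.41 ± 0.13 for RS5 (adjusted p = 5.09e-07). SIP2 was lower as well (-1.70 ± 0.35, adjusted p = 0.00457), and SIP1 was higher (2.42 ± 0.29, adjusted p = 0.000325). STS did not pass (-0.87 ± 0.34, adjusted p = 0.0592, 95% confidence interval -1.66 to -0.08), although the libraries did not overlap. It passed under median-ratio scaling (-0.97, adjusted p = 0.0417) and quantile normalization (-0.86, adjusted p = 0.0484), and without atbmi1abc replicate 2 (-1.32, adjusted p = 0.0181). With 1 member higher and 5 lower, the share called stood beside 57.3% of all loci, whose median shift was 0.10. GOLS2 and GOLS3 passed the filter through mutants in which they are high, atbmi1ab_strong among them, so the count of lower members was favoured by the filter.

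Expressed as a sum of FPKM, RS5, STS, SIP1 and SIP2 gave 69.7 and 95.1 in WT, 57.8 to 78.5 in the single mutants, 286 and 255 in atbmi1ab_strong, and 322 and 299 in atbmi1abc. SIP2 made up 76.6% and 82.5% of it in WT, RS5 55.1% and 44.2% in atbmi1b, and SIP1 81.4% and 80.7% in atbmi1abc. RS5 was down to 0.483% and 0.741% in atbmi1abc. The totals of the double and triple mutants were thus near each other, with SIP2 and RS5 holding most of the first beside SIP1 and STS, and SIP1 most of the second.

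**Figure D4:**
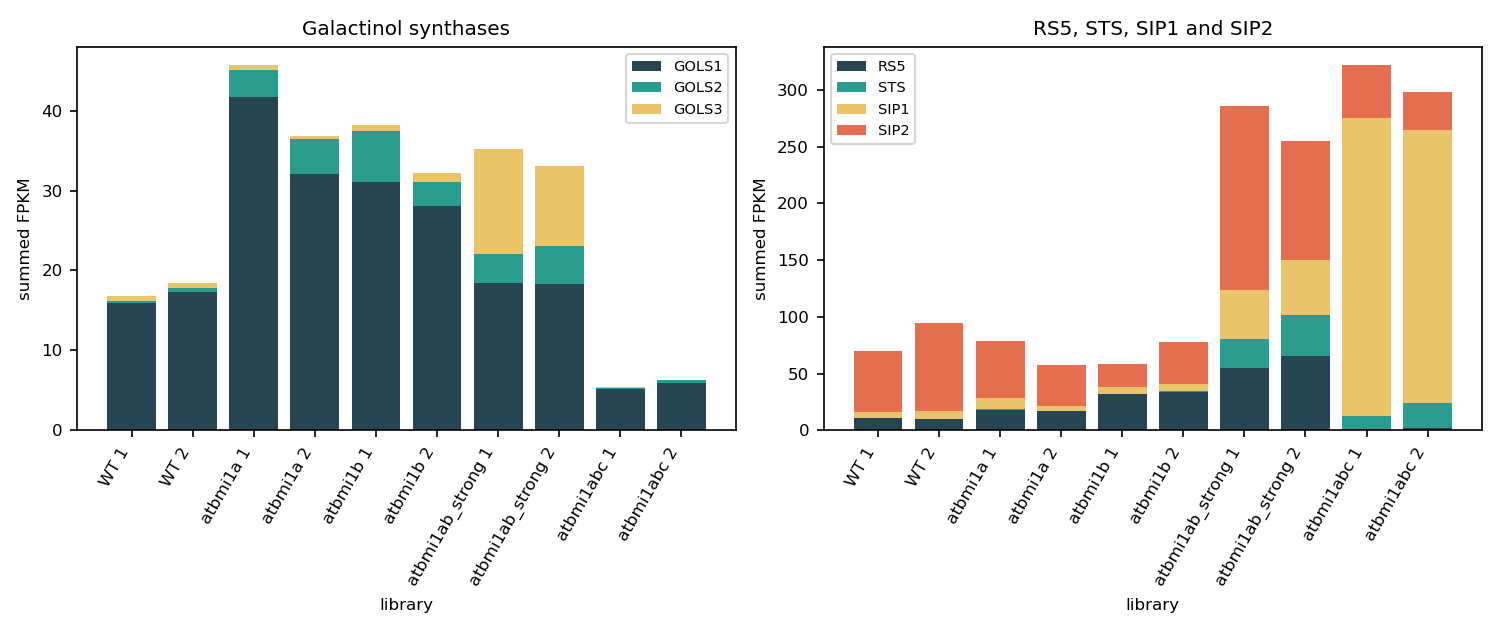
Summed FPKM per library (vertical axis) of the 3 galactinol synthase genes (left) and of RS5, STS, SIP1 and SIP2 (right), with 1 bar per library split by gene. GOLS3 appears in atbmi1ab_strong, where the bars reach 35.1 and 33.2, and SIP1 fills 81.4% and 80.7% of the right-hand bars of atbmi1abc.

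Other genes of the pathway were read from lists of 11 or fewer genes each. The counts of genes that rose or fell in the lists below stand beside the shares of all tested loci called in either direction against WT. These were 35.3% in atbmi1a, 45.4% in atbmi1b, 64.4% in atbmi1ab_strong and 74.0% in atbmi1abc. Among the other 7 galactinol synthase family genes only GOLS4 and GOLS8 had enough signal to be tested. GOLS4 was at 2.38 and 2.77 FPKM in WT and fell in atbmi1b (-1.13 ± 0.19, adjusted p = 0.00248), atbmi1ab_strong (-1.05 ± 0.19, adjusted p = 0.00183) and atbmi1abc (-1.79 ± 0.19, adjusted p = 6.53e-05). RefSeq names GOLS8 GATL10 and GOLS9 GATL4, after galacturonosyltransferase-like proteins, so their place in this family is uncertain. GOLS8 was not called in any mutant against WT and its libraries differed widely, at 24.1 and 1.74 FPKM in atbmi1abc. GOLS10, under the filter, reached 0.761 ± 0.171 FPKM in atbmi1ab_strong and 1.92 ± 0.382 in atbmi1abc against 0.0452 ± 0.064 in WT (SD, n = 2 each).

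DIN10 (AT5G20250), a raffinose synthase-like gene known for induction in darkness and sugar starvation, was the most abundant raffinose synthase-like transcript in WT and fell in all 4 mutants. It was at 477 and 489 FPKM in WT, 246 and 145 in atbmi1a, 34.3 and 71.1 in atbmi1b, 172 and 77.9 in atbmi1ab_strong, and 3.06 and 2.41 in atbmi1abc. All 4 mutants lay below WT without overlap. The falls were -1.35 ± 0.44 (adjusted p = 0.0479), -3.26 ± 0.44 (adjusted p = 0.000834), -2.05 ± 0.44 (adjusted p = 0.00421) and -7.02 ± 0.44 (adjusted p = 3.13e-06) in that order of mutants. RS5 rose in the first 3 of these mutants, and both genes were at their lowest in atbmi1abc.

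Of 11 genes that supply myo-inositol and UDP-galactose, 10 were in the tables under their own locus and all 10 were tested. In atbmi1a 3 rose and 2 fell, in atbmi1b 6 and 2, in atbmi1ab_strong 3 and 4, and in atbmi1abc 4 and 4. The myo-inositol phosphate synthase gene MIPS1, the first step of inositol synthesis, climbed from 85.7 ± 0.218 FPKM in WT to 225 ± 6.11 in atbmi1b, 422 ± 40.1 in atbmi1ab_strong and 654 ± 16.8 in atbmi1abc (2.92 ± 0.11, adjusted p = 2.94e-07 in the last). MIPS2 rose by 0.87 ± 0.23 in atbmi1a (adjusted p = 0.0241), 1.16 ± 0.23 in atbmi1b (adjusted p = 0.00513) and 2.48 ± 0.23 in atbmi1ab_strong (adjusted p = 4.56e-05). It was high in atbmi1abc as well, at 106 ± 4.46 FPKM, next to 86.3 ± 24.4 in atbmi1ab_strong and 14.5 ± 3.1 in WT. The UDP-glucose 4-epimerase genes UGE1 and UGE3, 2 of the genes that make UDP-galactose, went the other way. UGE1, at 170 ± 5.16 FPKM in WT, fell to 94.1 ± 4.34 in atbmi1a, 26.4 ± 2.77 in atbmi1b, 30.2 ± 1.13 in atbmi1ab_strong and 19.0 ± 2.42 in atbmi1abc (-3.10 ± 0.11, adjusted p = 1.93e-07 in the last). UGE3 fell from 18.7 ± 0.47 to 0.128 ± 0.0204 FPKM in atbmi1abc (-4.12 ± 0.19, adjusted p = 5.84e-07). UGE2 and UGE4 rose in atbmi1b (0.68, adjusted p = 0.0112, and 0.70, adjusted p = 0.0077), and UGE4 fell in atbmi1abc (-0.39, adjusted p = 0.0493). VTC4, an inositol monophosphatase gene, rose in atbmi1a by 0.90 ± 0.08 (adjusted p = 0.000345). Its levels were 15.5 ± 0.0861 FPKM in WT, 29.9 ± 1.17 in atbmi1a, 33.1 ± 0.819 in atbmi1b, 19.9 ± 1.06 in atbmi1ab_strong and 31.7 ± 0.359 in atbmi1abc.

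On the side of breakdown, the acidic alpha-galactosidase genes AGAL1 and AGAL2 parted. AGAL1 rose from 7.74 ± 0.534 FPKM in WT to 68.0 ± 4.37 in atbmi1ab_strong (2.98 ± 0.13, adjusted p = 7.52e-07) and 84.2 ± 6.78 in atbmi1abc (3.28 ± 0.13, adjusted p = 3.08e-07). AGAL2 fell from 12.0 ± 0.169 to 0.705 ± 0.475 FPKM in atbmi1abc (-2.96 ± 0.21, adjusted p = 5.89e-06). In atbmi1ab_strong it was also below WT, at 6.35 ± 1.46 FPKM. The galactokinase gene GALK fell in all 4 mutants, with -0.59 ± 0.11 in atbmi1a (adjusted p = 0.00498) the largest change. Of these 4 genes with AGAL3, 0 rose and 2 fell in each single mutant (limma; unadjusted p under 0.05 gave 1 and 2 in atbmi1a, 0 and 2 in atbmi1b), 1 rose and 2 fell in atbmi1ab_strong, and 1 rose and 3 fell in atbmi1abc.

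Sucrose, the acceptor of the galactose units, is made by sucrose phosphate synthases and cleaved by sucrose synthases. Of 10 such genes 2 rose in atbmi1a and 0 fell (limma; 2 and 0 at an unadjusted p under 0.05), 3 rose and 1 fell in atbmi1b, 6 rose and 1 fell in atbmi1ab_strong, and 5 rose and 4 fell in atbmi1abc. SUS2 and SPS3F, both under 1 FPKM in WT, passed the filter through mutants in which they are high. The counts of genes that rose were thus favoured by the filter. SUS2, the sucrose synthase of maturing seeds, went from 0.551 ± 0.0702 FPKM in WT to 236 ± 25.2 in atbmi1ab_strong (7.25 ± 0.51, adjusted p = 9.2e-06) and 201 ± 22.9 in atbmi1abc (7.02 ± 0.51, adjusted p = 6.87e-06). SPS4F rose in atbmi1a (1.27 ± 0.19, adjusted p = 0.00236) and atbmi1b (1.98 ± 0.19, adjusted p = 0.00017), with 9.13 ± 0.232 FPKM in WT and 39.5 ± 9.04 in atbmi1b, and fell to 0.967 ± 0.148 in atbmi1ab_strong and 0.692 ± 0.058 in atbmi1abc. SPS2F rose in atbmi1b as well (1.77 ± 0.16, adjusted p = 0.000136), where SUS4 fell (-1.50 ± 0.24, adjusted p = 0.00197). SUS3 rose by 3.54 ± 0.21 in atbmi1ab_strong (adjusted p = 4.12e-06) and 3.60 ± 0.21 in atbmi1abc (adjusted p = 2.23e-06). SPS3F went the other way from SPS4F in the double and triple mutants only, from 0.513 ± 0.0348 FPKM in WT to 14.1 ± 0.693 in atbmi1ab_strong and 27.8 ± 1.79 in atbmi1abc. In the single mutants, where SPS4F rose, SPS3F was at 0.955 ± 0.506 in atbmi1a and 0.676 ± 0.157 in atbmi1b.

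**Figure D5:**
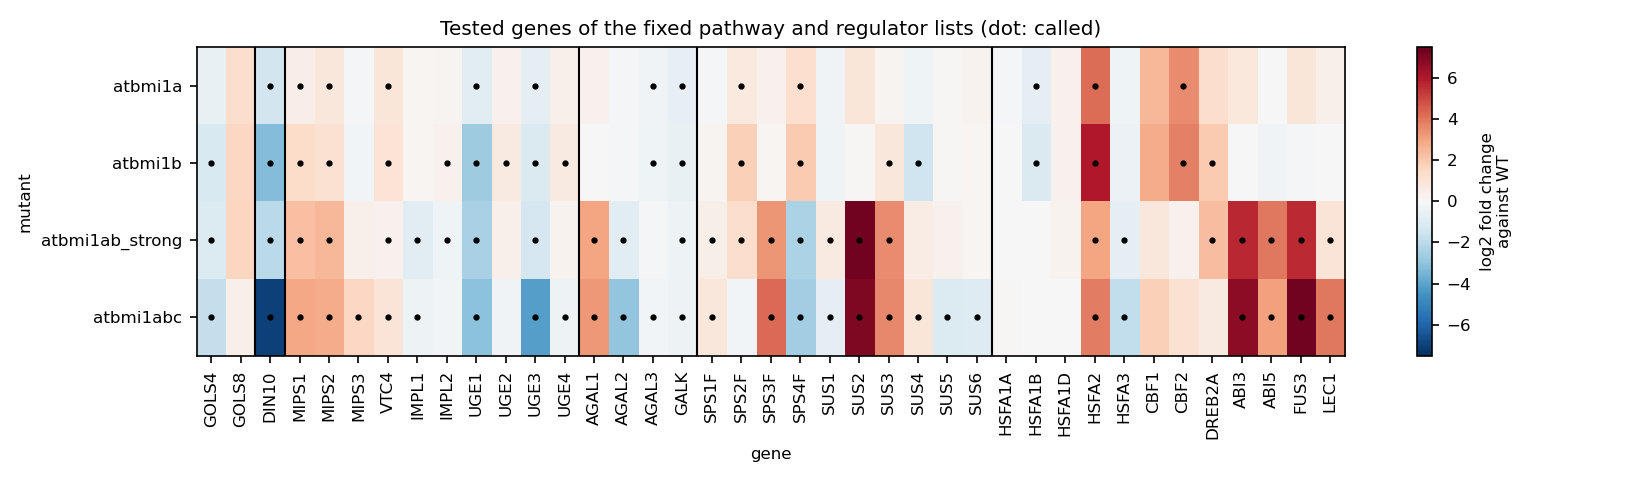
Log2 fold change against WT (colour, log2(FPKM + 1) scale) of the tested genes of the pathway and regulator lists (horizontal axis) in each mutant (vertical axis), with a dot where called. DIN10, UGE1 and UGE3 are blue in every mutant, and MIPS1 and HSFA2 are red in every mutant. SUS2, ABI3 and FUS3 are deep red in the lower 2 rows, where AGAL1 is a paler red.

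Among 15 regulators known to act on these genes or on seed maturation, 12 were tested. In atbmi1a 2 rose and 1 fell, in atbmi1b 3 and 1, in atbmi1ab_strong 6 and 1, and in atbmi1abc 5 and 1. Of the tested genes, ABI3, ABI5, FUS3, LEC1, HSFA2, CBF1 and CBF2 had means under 1 FPKM in WT. They passed the filter through mutants in which they are high, so these counts were favoured by the filter. The heat stress factor gene HSFA2, known to act upstream of GOLS1, went from 0.420 and 0.121 FPKM in WT to 55.9 and 8.27 in atbmi1a, 66.4 and 96.0 in atbmi1b, 8.79 and 8.89 in atbmi1ab_strong, and 13.2 and 22.1 in atbmi1abc. HSFA2 lay above WT in every mutant. GOLS1 was called higher in both single mutants, was not called in atbmi1ab_strong and fell in atbmi1abc. The part of HSFA2 in the level of GOLS1 was not tested. Of the single mutants, HSFA2 was called higher in atbmi1a (4.19 ± 0.71, adjusted p = 0.00413) and atbmi1b (6 ± 0.71, adjusted p = 0.000448), as was the cold regulator CBF2 (3.55 ± 1, adjusted p = 0.0277, and 3.75 ± 1, adjusted p = 0.017). DREB2A, another dehydration factor gene, rose in atbmi1b (1.98 ± 0.56, adjusted p = 0.0216), and HSFA1B fell in atbmi1a (-0.72 ± 0.10, adjusted p = 0.00178). HSFA1B stood lower still in atbmi1b, at 3.58 and 3.33 FPKM against 4.51 and 4.8 in atbmi1a and 8.08 and 8.59 in WT. CBF2 lies beside its close copies CBF1 and CBF3, and reads may be divided among the 3 genes. These factors varied widely between libraries of a genotype. In atbmi1abc CBF2 was at 14.7 and 0.232 FPKM, CBF1 at 11.6 and 0.116, and DREB2A at 7.5 and 1.12. In atbmi1a CBF2 was at 14.1 and 33.4, and CBF1 at 1.58 and 13.4. In atbmi1ab_strong, where GOLS3 was high, CBF2 was at 1.3 and 1.54 FPKM, next to 1.04 and 0.860 in WT, and CBF1 at 0.929 and 1.06, next to 0.0945 and 0.0953; neither was called. DREB2A had its highest level there, at 12.6 and 11.6 FPKM against 1.49 and 1.75 in WT (2.32 ± 0.56, adjusted p = 0.00711). The part of these factors in the level of GOLS3 was not tested.

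Of the seed maturation regulators, ABI3, FUS3, ABI5 and LEC1 rose in atbmi1ab_strong and atbmi1abc, while LEC2 and HSFA9 stayed under the filter, LEC2 at 0.0326 ± 0.046 and 0.335 ± 0.298 FPKM in these mutants and HSFA9 at 0.0835 ± 0.118 and 0.0532 ± 0.0752. ABI3 went from 0.0391 ± 0.0182 FPKM in WT to 50.9 ± 5.54 in atbmi1ab_strong and 106 ± 6.66 in atbmi1abc, and FUS3 from 0.152 ± 0.0421 to 55.6 ± 1.02 and 174 ± 6.14. ABI5, a bZIP factor of abscisic acid signalling, was at 0.784 ± 0.0383 FPKM in WT, 26.3 ± 3.80 in atbmi1ab_strong and 14.3 ± 4.29 in atbmi1abc. LEC1 reached 15.2 ± 0.674 FPKM in atbmi1abc (3.95 ± 0.26, adjusted p = 3.96e-06). SIP1, ABI3 and FUS3 were thus highest in atbmi1abc, and STS and ABI5 in atbmi1ab_strong. In atbmi1a replicate 1, ABI3 and FUS3 were at 2.31 and 3.48 FPKM, against 0.0194 and 0.045 in replicate 2.

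Stress marker genes were summed beside the members. The 6 heat shock genes rose in all 4 mutants, from sums of 18.6 and 13.5 FPKM in WT to 1080 and 325 in atbmi1a, 690 and 763 in atbmi1b, 305 and 314 in atbmi1ab_strong, and 515 and 726 in atbmi1abc. GOLS1 and GOLS2 were called higher in both single mutants, while in atbmi1abc GOLS1 fell and GOLS2 was not called. A link between the heat shock genes and these members was not tested. The 10 cold and dehydration genes summed to 330 and 317 FPKM in WT, 510 and 792 in atbmi1a, 552 and 497 in atbmi1b, 3520 and 2840 in atbmi1ab_strong, and 259 and 314 in atbmi1abc. Of 9 tested, 6, 4, 9 and 5 rose in the 4 mutants in that order, and 1 fell in atbmi1abc. Of all tested loci, 17.0%, 21.3%, 31.8% and 36.3% were called higher in the same order. COR15A and RD29B, and the heat shock genes HSP17.4, HSP17.6A and HSP17.6II, were under 1 FPKM in WT. They passed the filter through mutants in which they are high, so the calls of both lists were favoured by the filter. The sum of the cold and dehydration genes was highest in atbmi1ab_strong. In atbmi1abc the list's median log2 fold change was 1.79, and the sum lay near that of WT through COR47 alone, which fell from 214 ± 18.1 to 16.3 ± 1.69 FPKM, while RD29A and LTI30 rose from 4.23 and 19.8 to 64.6 and 73.7. The 3 phloem genes summed to 230 and 234 FPKM in WT and 55.9 and 72.5 in atbmi1abc, with none at 0. Of the 4 root genes, 3 fell and 1 rose in atbmi1abc. LRX1, EXP7 and CASP1 went from means of 10.0, 13.5 and 39.4 FPKM in WT to 0.973, 1.81 and 0.0656, CASP1 being listed at 0 in 1 library, while PIN2 went from 9.49 to 98.8 and alone carried the list's sum from 70.8 and 74.1 in WT to 97.5 and 106. The part of tissue make-up in the members' levels was not tested.

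For each member the loci of most similar pattern were sought among 8102 candidates with a symbol and a mean of at least 2 FPKM, by Pearson correlation of log2(FPKM + 1) over the 10 libraries, as a description. The points of each correlation are the same 10 libraries of 5 genotypes. GOLS1 was most like RD28, an aquaporin gene (0.98), FAR4 and XTH21 (both 0.972), and GOLS2 was most like the heat shock factor gene HSF4 (0.923), BRXL4 (0.921) and the ATP sulfurylase gene APS1 (0.92). GOLS3 was most like GLP9 (0.984), the transcription factor gene RAP2.6 (0.981) and the root hair regulator RHD6 (0.98). RS5 was most like the adenosine phosphosulfate kinase genes APK (0.993) and AKN2 (0.987), with the transporter gene ABCG29 between them (0.988). STS was most like ABI5 (0.998), LTI65, also named RD29B, a dehydration gene (0.997), and EPR1 (0.997). SIP1 was most like PDH-E1 BETA (0.997), a plastid pyruvate dehydrogenase gene, sks10 (0.996) and MOD1 (0.996), a gene of fatty acid synthesis. SIP2 was most like GDPD2 (0.98), AOC4 and APK4 (both 0.939).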

How the data were processed

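RNA-seq of 10 libraries was used. The submitters' processing notes name the tools of the authors (FastQC for quality, TopHat, then Cufflinks with Cuffdiff) and the build TAIR10, without versions, options or strand handling. Deposited by the authors are FPKM, 1 file per library with 27086 loci, the unit being read from those tools and from the values; 270 loci are merged entries, and UGE5, inside one, was not used. Reads of paralogs or overlapping genes could be split or shared. An exact 0 can be a failed estimate. Depth is not given, and low values compared between libraries put it at 0.818 to 1.35 times that of WT replicate 1.

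Differences were tested with limma 3.58.1 in R 4.3.3 (eBayes with trend) on log2(FPKM + 1), all 10 libraries being fitted together without covariates (5 residual degrees of freedom) and were checked on simulated data. No 2 of the 45 library pairs were identical. The members, lists, markers and motifs were chosen with earlier results of these data known. All 7 members are named, and from each list up to 3 called genes with the largest changes per comparison. GOLS8, GOLS10, UGE2, UGE4, LEC2, HSFA9, the single marker genes and single values of named regulators and pathway genes were chosen after their values were seen. Coordinates, sequences and the names of similar loci come from RefSeq TAIR10.1, which matched 26177 loci; member and list genes carry their names in common use, matched by locus, and some differ from RefSeq's symbols (AtBMI1A is DRIP2, AtBMI1B DRIP1, UGE4 RHD1). Promoter windows end at the base before the annotated start. Alternatives were other pseudocounts, filters and scalings, a replicate block, no trend, a fit of the compared groups alone, and leaving out each library.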

Additional observations from a re-analysis of the deposited data

How the results depend on the processing

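Of 992 recalculated member fold changes, 973 kept their direction and side of the threshold, 10 lost the call, 7 gained it and 2 reversed. Without atbmi1a replicate 1, SIP1 was -0.47 in atbmi1a against WT (adjusted p = 0.0248) and 0.52 in atbmi1b against atbmi1a (adjusted p = 0.0408); without replicate 2 it was 0.60 and -0.55, so its value in atbmi1a is that of 1 library or the other. With a minimum mean of 5 FPKM, which drops GOLS2 and GOLS3, 3 members were lower in atbmi1abc than in atbmi1ab_strong and 2 lower than in the mean of the single mutants. In a fit of the compared groups alone, 3051 loci were called in atbmi1a against WT instead of 6874, and 0 by limma in atbmi1b against atbmi1a instead of 1450 (3814 at an unadjusted p under 0.05), so 0 members were higher there.

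Leaving out 1 library gave 3802 to 6707 loci called in atbmi1a against WT, 163 to 1849 in atbmi1b against atbmi1a and 6069 to 9687 in atbmi1b against WT, and 0 to 1 members lower in each of these 3. Members higher were 3 to 4 in atbmi1a against WT, 0 to 2 in atbmi1b against atbmi1a and 5 to 6 in atbmi1ab_strong against WT. Members lower were 2 to 3 in atbmi1abc against WT and 5 to 6 in atbmi1abc against atbmi1ab_strong. Where 1 library is left in a genotype, it is assumed to vary like the others. STS in the last comparison also passed without either atbmi1a library (adjusted p = 0.036 and 0.0356).

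The replicate numbers do not pair the libraries: differences between replicates correlated at -0.226 to 0.119 between genotypes. With the replicate block, SIP2 in atbmi1ab_strong was 1.00 (adjusted p = 0.0554), and no other member call changed. With a pseudocount of 0.1, GOLS2 and GOLS3 were -3.88 and -6.27 in atbmi1abc against atbmi1ab_strong, and -3.85 and -2.29 against the mean of the single mutants. With 2 libraries per genotype and no read totals, small differences of low genes are not detectable. The causes of these shifts were not tested.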
